A study of Mus musculus with 6 samples.

Results

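The mRNAs of 9 genes of the hypoxia response were followed in mouse alveolar type II cells, the surfactant-producing cells of the lung, after deletion of Stat3. They are the oxygen-regulated transcription factor subunits Hif1a and Epas1, the prolyl hydroxylases Egln1 and Egln3, and the target genes Vegfa, Adm, Slc2a1, Bnip3 and Ndrg1. Every probe set of the array that its annotation gives to one of these genes alone was taken. This gave 23 probe sets of the 9 genes, out of 45037 probe sets and 18193 genes that were measured. Stat3Δ/Δ cells came from triple-transgenic mice that carried SP-C-rtTA and (tetO)7CMV-Cre together with Stat3flx/flx, in which the surfactant protein C promoter drives the doxycycline-dependent activator of Cre, so that exon 21 of Stat3 was removed in respiratory epithelial cells before birth. Control cells came from non-deleted littermates, which the labels give as doubly transgenic for SP-C-rtTA and (tetO)7CMV-Cre, and the methods as carrying the floxed alleles with only one of those transgenes. All mice were 8 weeks old and had dams fed doxycycline. Each group had 3 pools of 3 mice, isolated with collagenase and differential plating, and each pool was hybridized to 1 MOE430 array. By stain, the methods report mostly type II cells, with some alveolar macrophages left and no difference in purity between the groups.

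Hypoxia-inducible factors are made of an oxygen-regulated alpha subunit, such as HIF1A or EPAS1 (HIF2A), and the stable partner ARNT. In the presence of oxygen, prolyl hydroxylases of the EGLN family modify the alpha subunit, VHL binds it, and it is degraded. Regulation is therefore largely at the level of the protein, which the arrays do not measure. When oxygen falls, the factors bind a short core sequence and raise the transcription of genes for vessel growth, glucose uptake and glycolysis, several of which are also expressed in the normoxic lung. In type II cells EPAS1 is known for its part in lung maturation and surfactant production, and VEGFA from the epithelium supports the alveolar capillaries.

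None of the 23 probe sets passed the thresholds in limma of 1.5-fold, p at most 0.05 and a false discovery rate (FDR) no higher than 10%, where the linear model was fitted over all probe sets. A single probe set, Hif1a 1448183_a_at, had an unadjusted p of at most 0.05. It was higher in the 3 Stat3Δ/Δ pools than in any control pool, while the 2 brighter Hif1a probe sets overlapped between the groups. Egln1 1423785_at was lower in the 3 Stat3Δ/Δ pools than in any control pool, by less than 1.5-fold. All other members overlapped. The plot of log2 signals by pool shows both separated probe sets beside the 21 others.

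**Figure D1:**
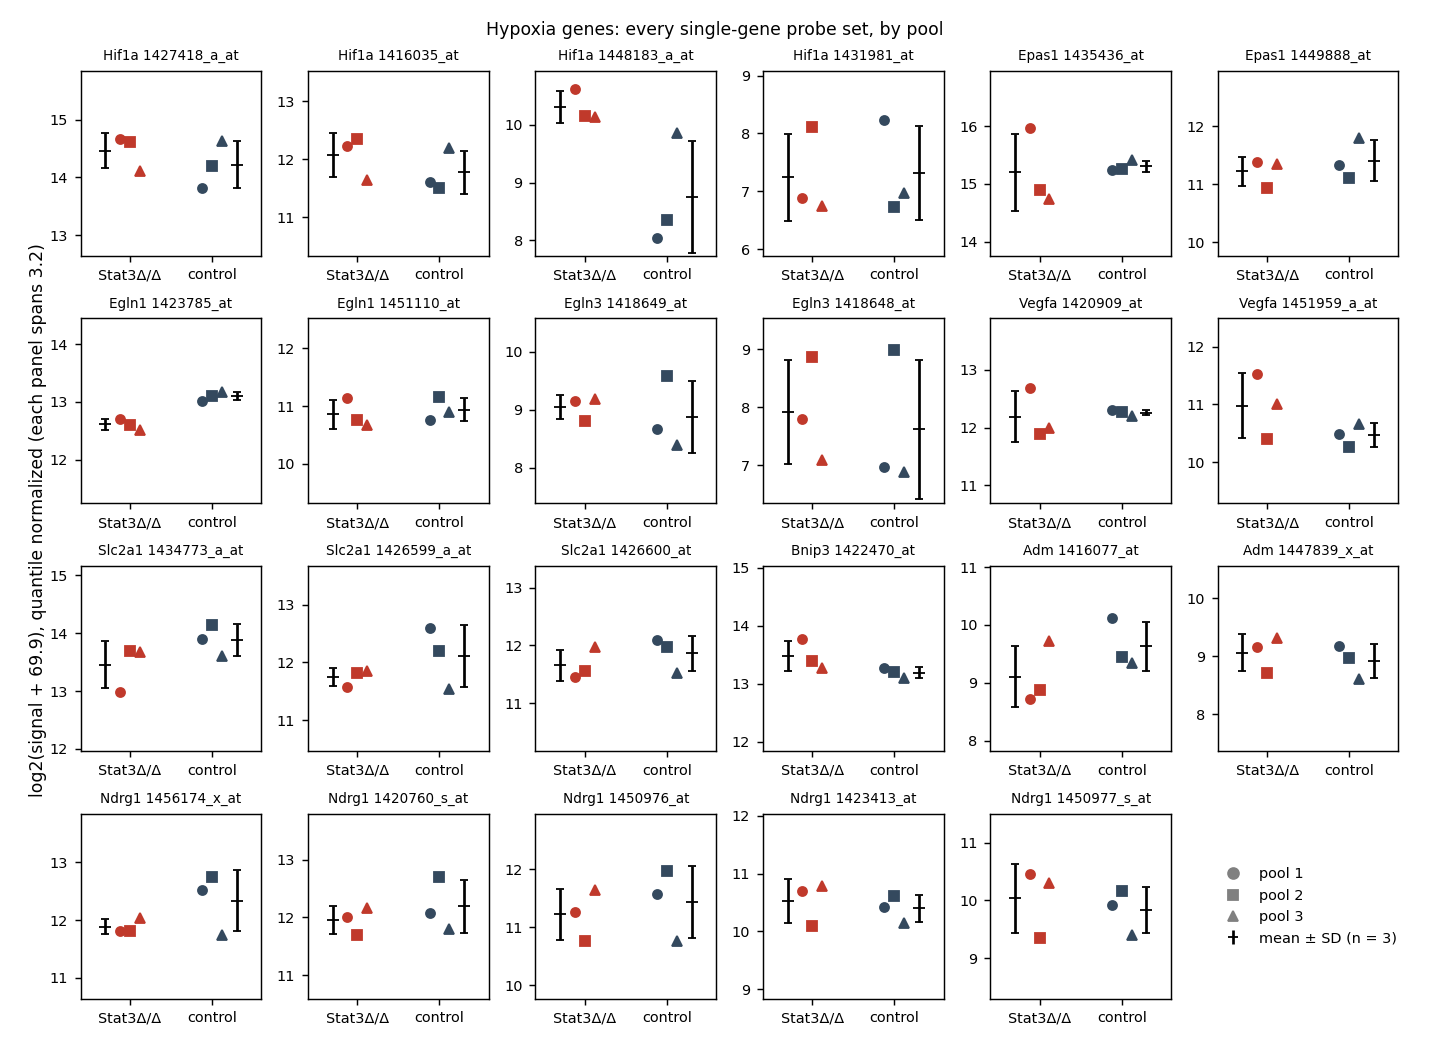
Log2(signal + 69.9) after quantile normalization (vertical axes, each spanning the same range) of the 23 probe sets, with 1 panel each, for the Stat3Δ/Δ pools (red, left) and the control pools (blue, right). Points are pools 1 to 3 and bars are the mean ± SD of 3 pools. The groups are apart for Hif1a 1448183_a_at, which is higher in Stat3Δ/Δ pools, and Egln1 1423785_at, which is lower in them.

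The values are linear signals with a trimmed mean of 1500 on every array. Differences are given as log2 fold changes of signal + 69.9, Stat3Δ/Δ over control, after quantile normalization, a scale that understates changes of dim genes. The precision is limited by the number of arrays, and in cell isolates a lower proportion of a cell type and less RNA per cell cannot be told apart. Of 4 Stat3 probe sets, the brightest, 1426587_a_at, had 26284.7, 20127.5 and 25650.1 in Stat3Δ/Δ pools 1 to 3, against 49488.8, 41544.1 and 35080.1 in control pools 1 to 3. This probe set and 1460700_at were lower in every Stat3Δ/Δ pool than in any control pool, and the other 2 overlapped. Of these, 1459961_a_at had a log2 fold change of 0.60 (SE 0.29) and 1424272_at of -0.047 (SE 0.35, limma). The position of the 4 probe sets relative to exon 21 was not analysed here. Markers of type II cells had summed signals of 615566 to 817870 in Stat3Δ/Δ pools and 734072 to 820429 in control pools. Of the 9 measured, 3 had log2 fold changes above 0 and 6 below. In 2 the Stat3Δ/Δ pools were all lower than any control pool, and in 0 all higher. Of 9 macrophage markers 8 had log2 fold changes above 0, with summed signals of 50511 to 90986 in Stat3Δ/Δ pools and 30254 to 49556 in control pools. Of 7 neutrophil markers 5 lay above 0 (22485 to 29550 in Stat3Δ/Δ pools, 5618 to 14773 in control pools), and of 8 fibroblast markers 7 lay below 0 (5477 to 11112 in Stat3Δ/Δ pools, 16515 to 33179 in control pools). All 5 ciliated cell markers lay below 0 (29379 to 41572 in Stat3Δ/Δ pools, 37692 to 49417 in control pools). These sums were mostly Tubb4b (24253.8 to 36169.7 in Stat3Δ/Δ pools, 28762.0 to 36926.2 in control pools). The median log2 fold change of the 5 was -1.06. All 5 mesothelial markers also lay below 0 (2751 to 5637 in Stat3Δ/Δ pools, 8253 to 11246 in control pools). No marker was listed at 0 in any pool, which does not show that each was detected. Some were dim, such as the fibroblast marker Mfap4 (19.6 to 29.6 in Stat3Δ/Δ pools, 16.5 to 36.5 in control pools). The part of these cells in the values below was not tested. Sample titles hold a first, leading number of unstated meaning, which for Stat3Δ/Δ pools 1 and 2 is that of control pool 3 and of no other pool. The difference within those 3 arrays is given beside the results as the within-number value. It has 1 control array and no test.

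The HIF core sequence was looked up in the 250 bases before the start of each gene in RefSeq (GRCm38.p6), since all members are known in some cell type as factors, regulators or targets of this response. The letters ACGTG and GCGTG were searched on both strands. ACGTG lay in 5444 of 32851 promoters of this length (16.6%), GCGTG in 9250 (28.2%) and either in 12679 (38.6%). Of the 7 member genes with an entry, 6 had ACGTG, as did 6 of their 8 promoter entries. The shares over all promoters count entries. Adm had GCGTG alone, and Epas1 and Ndrg1 had no entry. Windows around ACGTG on the strand of the gene are shown for 5 of the genes, 5′ to 3′, with the motif in capitals:
Hif1a, 134 bases before the start, chr12:73907713-73907757, plus strand: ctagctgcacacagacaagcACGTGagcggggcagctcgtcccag
Hif1a, 70 bases before the start, chr12:73907777-73907821, plus strand: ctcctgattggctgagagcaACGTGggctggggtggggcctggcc
Egln1, 68 bases before the start, chr8:124949298-124949342, minus strand: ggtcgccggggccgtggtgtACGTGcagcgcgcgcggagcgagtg
Egln3, 229 bases before the start, chr12:54204079-54204123, minus strand: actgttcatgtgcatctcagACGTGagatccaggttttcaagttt
Slc2a1, 36 bases before the start, chr4:119108689-119108733, plus strand: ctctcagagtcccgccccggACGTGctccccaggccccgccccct
Bnip3, 107 bases before the start, chr7:138909589-138909633, minus strand: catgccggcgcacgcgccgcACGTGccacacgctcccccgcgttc
In the first Hif1a window and in the Bnip3 window the motif is part of the palindrome CACGTG, so that it is read on both strands. The Hif1a start used here lies within a longer annotated span of the gene, which begins at position 73901324 of chromosome 12. For Vegfa, ACGTG lay only before a start inside the gene, and it is not shown. These matches describe the letters alone.

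Hif1a encodes the oxygen-regulated subunit that is expressed in most cells, myeloid cells included. Its brightest probe set, 1427418_a_at, had signals of 23746.0, 23809.4 and 18259.4 in Stat3Δ/Δ pools 1 to 3, and of 15494.3, 19213.1 and 24411.6 in control pools 1 to 3. The highest signal was that of control pool 3, and the groups overlapped. After quantile normalization Stat3Δ/Δ pool 1 was the highest, at a log2 value of 14.67 against 14.63 in control pool 3. The log2 fold change was 0.24 (SE 0.31, 95% interval -0.46 to 0.95, adjusted p = 0.858, limma), with a within-number value of 0.0069. Probe set 1416035_at had 4772.2, 5133.0 and 3086.2 in Stat3Δ/Δ pools, against 2955.9, 2872.3 and 4629.9 in control pools. Here too control pool 3 lay among the high values and Stat3Δ/Δ pool 3 near the other two controls. Its log2 fold change was 0.30 (SE 0.31, adjusted p = 0.823, limma) and its within-number value 0.09.

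A different picture was given by Hif1a 1448183_a_at, whose suffix marks probes that match several transcripts of the gene. It had 1560.4, 1098.6 and 1036.4 in Stat3Δ/Δ pools 1 to 3, against 164.5, 235.3 and 916.0 in control pools 1 to 3. The groups did not overlap, but the control pools themselves were spread widely, and control pool 3 was close to the Stat3Δ/Δ pools. Mean log2 signals were 10.30 ± 0.28 in Stat3Δ/Δ cells and 8.75 ± 0.97 in control cells (SD, n = 3 each). This gave a log2 fold change of 1.55 (SE 0.47, 95% interval 0.48 to 2.62, unadjusted p = 0.0101, adjusted p = 0.501, limma). Within the arrays of one leading title number the difference was 0.53, against 1.93 between Stat3Δ/Δ pool 3 and control pools 1 and 2. Control pool 3 exceeded the other two control pools by 1.66, which is more than the difference between the groups. With the title number as a fixed block in limma the log2 fold change was the same 0.53. This fit draws its estimate from the same 3 arrays, as no other title number holds both groups. At p of at most 0.05 and 1.5-fold without the FDR, 4.14% of all probe sets were higher and 4.22% lower, and of the 23 member probe sets 1 was higher and 0 lower. With the FDR these shares were 0.00222% and 0%. Groups that did not overlap occurred in 5.99% of all probe sets with Stat3Δ/Δ higher and in 7.66% with Stat3Δ/Δ lower, so that 1 member probe set in each direction is near the background.

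Ratios of 3′ to 5′ signal, a sign of RNA integrity, differed along the same pools. The control probe sets at the 3′ and 5′ ends of Actb had a log2 ratio (3′ over 5′) of 0.42, 0.34 and 0.42 in Stat3Δ/Δ pools 1 to 3, and 0.81, 0.64 and 0.47 in control pools 1 to 3. For Gapdh it was -0.49, -0.30 and -0.44 in Stat3Δ/Δ pools, against 0.27, 0.031 and -0.24 in control pools. Each difference gave p = 0.1 (exact permutation test, two-sided), which is as small as this design can give. Control pools 1 and 2, with the highest ratios, were the pools with the lowest signals of Hif1a 1448183_a_at, and the part of RNA integrity in this difference was not tested. The fourth Hif1a probe set, 1431981_at, was dim, with 55.6, 208.9 and 40.3 in Stat3Δ/Δ pools and 196.9, 33.2 and 55.9 in control pools. Its groups overlapped fully.

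Epas1 encodes the alpha subunit HIF2A, which is abundant in the lung, in endothelial and type II cells. Probe set 1435436_at had 57149.4, 29515.1 and 28389.4 in Stat3Δ/Δ pools 1 to 3, against 42333.0, 40265.1 and 42767.1 in control pools 1 to 3. The Stat3Δ/Δ pools lay on both sides of the control pools, which were nearly equal. The SD of the log2 signal was 0.67 in Stat3Δ/Δ pools and 0.091 in control pools. No difference was detectable at this spread, with a log2 fold change of -0.10 (SE 0.35, 95% interval -0.91 to 0.71, adjusted p = 0.962, limma). The dimmer probe set, 1449888_at, had 2653.7, 1914.5 and 2480.4 in Stat3Δ/Δ pools, against 2419.6, 2145.2 and 3500.9 in control pools. These groups overlapped as well, with a log2 fold change of -0.19 (SE 0.29, adjusted p = 0.889, limma). Of 10 endothelial markers 8 lay below 0, and their summed signals were 27474 to 39057 in Stat3Δ/Δ pools and 33386 to 41697 in control pools.

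The genes whose pattern over the 6 arrays was nearest to each factor were looked for among 20047 single-gene probe sets of above-median level, by the root mean square difference of centred log2 signals. For Hif1a 1427418_a_at these were Gatad2b (0.047), Tmem106b (0.049) and Ubr3 (0.057). For Epas1 1435436_at they were Apaf1 (0.071), Rev3l (0.083) and Sh3glb1 (0.089). The 6 arrays share their scaling and normalization, and the likeness is a description with no test.

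EGLN1 (PHD2) is the main prolyl hydroxylase that marks HIF1A for degradation in normoxia. Egln1 1423785_at had 6642.6, 6177.9 and 5759.2 in Stat3Δ/Δ pools 1 to 3, against 8530.8, 8803.0 and 8937.0 in control pools 1 to 3. The pools of each group lay close together and the groups were apart, at mean log2 signals of 12.61 ± 0.094 in Stat3Δ/Δ cells and 13.10 ± 0.073 in control cells (SD, n = 3 each). In the fit the log2 fold change came to -0.49 (SE 0.23, 95% interval -1.02 to 0.043, unadjusted p = 0.067, adjusted p = 0.624, limma). It was -0.51 within the 3 arrays of one title number and -0.55 between Stat3Δ/Δ pool 3 and control pools 1 and 2. Unlike that of Hif1a 1448183_a_at, this difference was of one size in both sets of arrays, although the fit did not pass either threshold. The second probe set of the gene, 1451110_at, had 2250.2, 1703.1 and 1524.9 in Stat3Δ/Δ pools, against 1550.6, 2229.2 and 1888.6 in control pools. It overlapped, with a log2 fold change of -0.079 (SE 0.26, adjusted p = 0.959, limma).

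EGLN3 (PHD3) is a prolyl hydroxylase whose gene is itself a HIF target. Egln3 1418649_at had 553.3, 396.5 and 506.6 in Stat3Δ/Δ pools, and 285.3, 673.6 and 282.3 in control pools. Control pool 2 was the highest of all and the other two control pools the lowest. The log2 fold change was 0.17 (SE 0.35, adjusted p = 0.921, limma). Egln3 1418648_at was dim in several pools, with 177.4, 412.9 and 70.5 in Stat3Δ/Δ pools against 46.4, 410.9 and 48.4 in control pools. Both groups had their highest value in pool 2, and the log2 fold change of 0.30 had the largest error of the 23 (SE 0.64, adjusted p = 0.929, limma).

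Vegfa, the growth factor for endothelial cells, was measured by a pair of probe sets. Vegfa 1420909_at had 6558.9, 3767.9 and 3950.9 in Stat3Δ/Δ pools 1 to 3, against 5000.3, 4880.0 and 4656.8 in control pools 1 to 3. Stat3Δ/Δ pool 1 lay above all control pools and the other Stat3Δ/Δ pools below them, as for Epas1 1435436_at. Its log2 fold change was -0.070 (SE 0.29, adjusted p = 0.968, limma). Vegfa 1451959_a_at, which matches several transcripts of the gene, had 2933.0, 1323.9 and 1944.8 in Stat3Δ/Δ pools, against 1265.2, 1154.3 and 1610.4 in control pools. Stat3Δ/Δ pool 2 lay within the range of the controls, and the log2 fold change was 0.51 (SE 0.33, 95% interval -0.24 to 1.27, adjusted p = 0.716, limma). It was 0.24 without Stat3Δ/Δ pool 1 (unadjusted p = 0.467, limma) and 0.80 without Stat3Δ/Δ pool 2 (unadjusted p = 0.0419, limma).

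Adm encodes adrenomedullin, a secreted vasodilator peptide. Adm 1416077_at had 401.2, 420.4 and 755.4 in Stat3Δ/Δ pools 1 to 3, against 938.3, 601.2 and 619.3 in control pools 1 to 3. Stat3Δ/Δ pools 1 and 2 were the lowest, and pool 3 lay among the controls. This gave a log2 fold change of -0.52 (SE 0.36, 95% interval -1.34 to 0.29, adjusted p = 0.725, limma). Left-out pools moved it in both directions, to -0.83 without Stat3Δ/Δ pool 3 (unadjusted p = 0.0405, limma), -0.33 without Stat3Δ/Δ pool 1 (unadjusted p = 0.423) and -0.28 without control pool 1 (unadjusted p = 0.470). Adm 1447839_x_at, whose suffix marks probes that may also match other transcripts, overlapped between the groups, with 560.6, 362.1 and 557.3 in Stat3Δ/Δ pools and 430.1, 403.9 and 343.7 in control pools.

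Slc2a1 encodes the glucose transporter GLUT1. All 3 probe sets of the gene had negative log2 fold changes, and none separated the groups. The brightest, 1434773_a_at, had 7897.8, 12870.3 and 13328.3 in Stat3Δ/Δ pools 1 to 3, against 16588.6, 18399.2 and 12018.6 in control pools 1 to 3. Stat3Δ/Δ pool 1 was the lowest and control pools 1 and 2 were the highest, with control pool 3 between the Stat3Δ/Δ pools. Stat3Δ/Δ over control, the log2 fold change was -0.43 (SE 0.30, 95% interval -1.12 to 0.26, adjusted p = 0.730, limma), and -0.26 within the shared title number. For 1426599_a_at it was -0.37 (SE 0.32) over all arrays and 0.15 within that number, and for 1426600_at it was -0.21 (SE 0.28) and -0.016.

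Bnip3 encodes a mitochondrial protein that promotes mitophagy. Its only probe set, 1422470_at, had 13175.3, 10587.2 and 9956.9 in Stat3Δ/Δ pools 1 to 3, against 10295.1, 9455.0 and 8526.8 in control pools 1 to 3. Stat3Δ/Δ pools 1 and 2 were above every control pool, and Stat3Δ/Δ pool 3 was below control pool 1. The log2 fold change was 0.29 (SE 0.25, 95% interval -0.29 to 0.87, adjusted p = 0.787, limma), and 0.49 within the shared title number.

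Ndrg1, whose product takes part in stress responses and vesicle trafficking, had 5 probe sets, of which 3 had negative and 2 positive log2 fold changes. The brightest, 1456174_x_at, had 3572.4, 3571.0 and 4079.9 in Stat3Δ/Δ pools 1 to 3, against 5881.0, 6774.8 and 3358.1 in control pools 1 to 3. Control pools 1 and 2 were above all others and control pool 3 was the lowest. In the fit the log2 fold change came to -0.45 (SE 0.32, adjusted p = 0.733, limma), and 0.073 within the shared title number. It was -0.24 without control pool 2 (unadjusted p = 0.498, limma) and -0.75 without control pool 3 (unadjusted p = 0.0287, limma). Probe set 1450976_at, low in control pool 3 and in Stat3Δ/Δ pool 2, had 2439.7, 1706.8 and 3096.7 in Stat3Δ/Δ pools and 2873.3, 3948.9 and 1720.0 in control pools. The remaining log2 fold changes of the gene lay between -0.23 and 0.21. The probes of 1456174_x_at, 1420760_s_at and 1450977_s_at may also match other transcripts, so that their signals are uncertain as measures of Ndrg1.

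**Figure D2:**
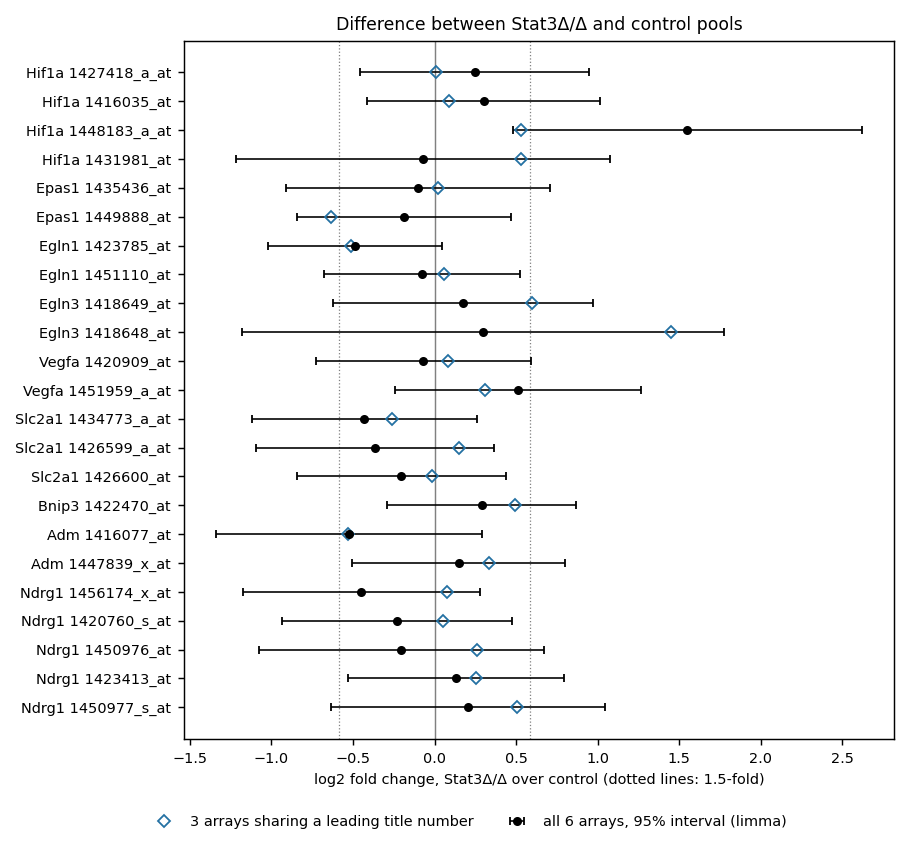
Log2 fold change of Stat3Δ/Δ over control (horizontal axis) for each of the 23 probe sets. Black points are limma estimates from 6 arrays with 95% intervals, open diamonds are differences within the 3 arrays of one leading title number, and dotted lines mark 1.5-fold; 22 of the 23 intervals include 0, and the exception, Hif1a 1448183_a_at, has its diamond at 0.53.

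The members did not move together. Of the 23 probe sets 10 had log2 fold changes above 0 and 13 below, with a median of -0.070, beside -0.017 over all probe sets. Of the 8 genes with more than 1 probe set, 4 had probe sets of both signs. Intervals included 0 for 22 of the 23 probe sets, and adjusted p ranged between 0.501 and 0.984 (limma). By the probe set of highest mean, 3 genes were above 0 and 6 below, with a median of -0.10. Over all genes chosen in this way the median was -0.085 and 59.3% were below 0. The median SE of the 23 was 0.31. Differences of 1.5-fold (0.58 on the log2 scale) and somewhat more were therefore mostly not detectable with these arrays. Even the largest log2 fold change of the 23, 1.55 for Hif1a 1448183_a_at, did not pass the FDR. In 17 of the 23 probe sets control pool 3 differed from the mean of control pools 1 and 2 by more than the groups differed from each other, which held for 60.8% of all probe sets. The sign within the shared title number was that of the whole comparison in 15 of the 23, and in 74.1% of all probe sets.

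Single pools set many of the ranges of the log2 values after normalization, whose order can differ from that of the signals. On this scale Stat3Δ/Δ pool 1 had the highest of the 6 values in 7 of the 23 probe sets. Among these were the brightest probe sets of Hif1a, Epas1, Vegfa and Bnip3. Control pool 2 also had the highest value in 7, and control pool 3 had the lowest in 7. Stat3Δ/Δ pool 2 had the lowest value in 5. Of the other pools, none had the highest value in more than 4 or the lowest in more than 3.

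Probe sets of one gene were compared within each array, as the difference of their log2(signal + 69.9) after quantile normalization. This log2 ratio of each of the 14 other probe sets to the brightest of its gene was higher on average in Stat3Δ/Δ pools than in control pools in 12, as were 58.8% of such ratios over all genes. In 4 it was higher in the 3 Stat3Δ/Δ pools than in any control pool, and in 0 it was lower, where the shares over all genes were 11% and 4.42%. For Hif1a 1448183_a_at over 1427418_a_at it was -4.05, -4.45 and -3.98 in Stat3Δ/Δ pools 1 to 3, against -5.77, -5.85 and -4.77 in control pools 1 to 3. The difference in log2 ratio was 1.31, and 0.52 within the shared title number. Vegfa 1451959_a_at over 1420909_at had -1.17, -1.48 and -0.98 in Stat3Δ/Δ pools, against -1.81, -2.01 and -1.55 in control pools, a difference of 0.58. Within the shared title number it was 0.23. For Egln1 1451110_at the difference was 0.41 and for Adm 1447839_x_at it was 0.67. Each of the 4 had p = 0.1 by exact permutation (two-sided), the smallest possible, and 0.35 after adjustment over the 14 comparisons. Which exons the probe sets cover was not analysed here. The part of RNA integrity, for which 3′ to 5′ ratios were given above, was not tested.

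**Figure D3:**
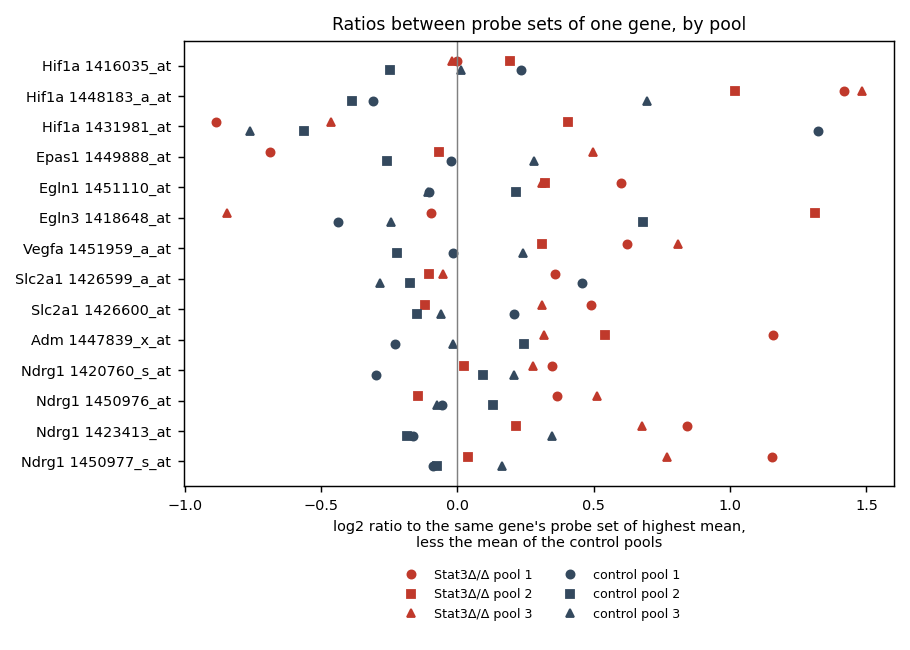
Log2 ratio of each of 14 probe sets to the probe set of highest mean of the same gene, less the mean of the control pools (horizontal axis), for Stat3Δ/Δ pools (red) and control pools (blue). All red points lie to the right of all blue points for Hif1a 1448183_a_at, Egln1 1451110_at, Vegfa 1451959_a_at and Adm 1447839_x_at.

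Other genes of the pathway were examined in a list of oxygen sensing machinery and a list of further HIF targets. Of 20 machinery genes 17 were measured, 9 above and 8 below 0, with a median log2 fold change of 0.055 and a range of -0.73 to 0.93. At p of at most 0.05 and 1.5-fold without the FDR, 1 was higher and 1 lower, beside 2.15% higher and 5.55% lower over all genes. None of these passed the FDR. Rbx1, the RING subunit of the ubiquitin ligase that contains VHL, was higher but dim, with 209.2, 239.8 and 76.0 in Stat3Δ/Δ pools 1 to 3, against 37.2, 14.3 and 92.4 in control pools 1 to 3. Its groups overlapped, with a log2 fold change of 0.93 (SE 0.37, adjusted p = 0.565, limma). Cited4, a coregulator that binds CBP and p300, was lower, with 497.2, 666.7 and 666.7 in Stat3Δ/Δ pools, against 876.1, 1098.7 and 993.4 in control pools. The groups were apart, at a log2 fold change of -0.73 (SE 0.26, adjusted p = 0.532, limma) and a within-number value of -0.74.

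Of 45 further targets 42 were measured, 16 above and 26 below 0, with a median of -0.17 and a range of -0.80 to 0.48. None was higher by the rule without the FDR and 1 was lower. This was Ddit4 (REDD1), an inhibitor of mTORC1, which had 6457.1, 7913.1 and 8023.5 in Stat3Δ/Δ pools 1 to 3, against 10552.6, 13293.5 and 11117.5 in control pools 1 to 3. The groups did not overlap, and the log2 fold change was -0.62 (SE 0.25, adjusted p = 0.565, limma), with a within-number value of -0.67. Within the shared title number the medians were -0.039 for the machinery and 0.036 for the further targets. The counts of both lists are thus near those over all genes, and the plot of gene lists shows the members and both lists within the spread of all genes for nearly every gene.

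**Figure D4:**
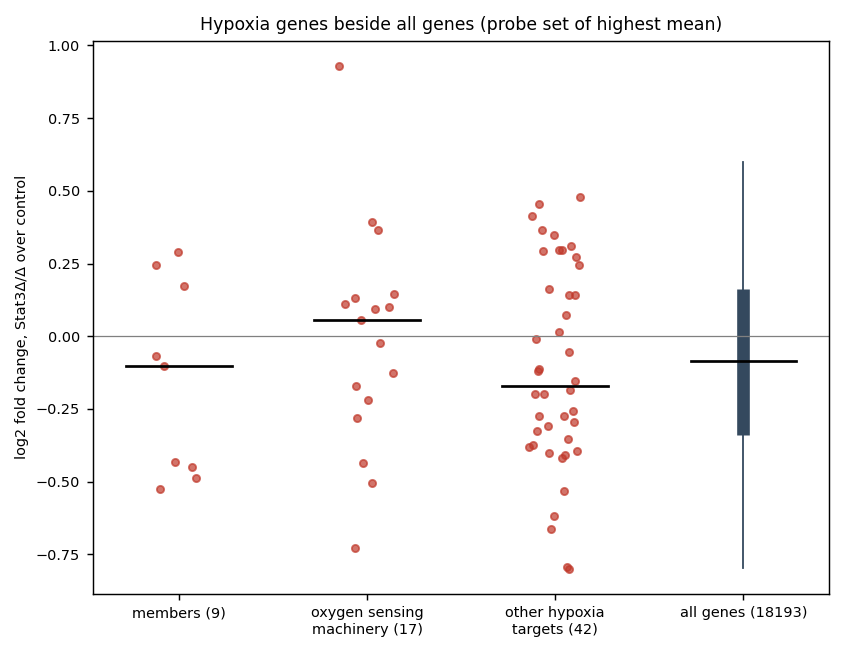
Log2 fold change of Stat3Δ/Δ over control (vertical axis) by the probe set of highest mean for the 9 members, 17 machinery genes and 42 further targets (points), beside all 18193 genes (thick bar, interquartile range; thin line, 5th to 95th percentile). Black lines are medians, at -0.10, 0.055, -0.17 and -0.085.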

How the data were processed

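Affymetrix MOE430 arrays measured mRNA of alveolar type II cells in 3 Stat3Δ/Δ pools and 3 control pools of 3 mice. The deposited intensities are linear signals from Microarray Suite 5.0 (MAS5), which the authors scaled to one trimmed mean, 1500. RMA values, on which the published tests rest, were not used here. By those tests the study reported Hif1a as increased in Stat3Δ/Δ cells, whereas no Hif1a probe set passed the FDR here. Median signals were 337.7 to 381.2 in Stat3Δ/Δ arrays and 282.8 to 360.5 in control arrays. Groups come from titles and source names, since every sample has the same description.

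Of 45101 probe sets 64 controls were left out. A pseudocount of 69.9 (the 20th percentile of the signals) was added before log2 and quantile normalization. limma 3.58.1 (R 4.3.3) was fitted with lmFit and eBayes to 45037 probe sets, with Benjamini-Hochberg adjustment over all of them. Calls needed 1.5-fold, p no higher than 0.05 and FDR no higher than 10%, and were also counted without the FDR. Of the probe sets 34945 name 1 gene, 932 several and 9160 none. The genes, lists, tests and alternatives were chosen with earlier results of these data known. Named genes are the members, Stat3, up to 4 list genes in each direction by the rule without the FDR, and the 3 nearest patterns to Hif1a and Epas1. List genes that matched no single-gene probe set are not reported here. Ratios within a gene were compared with exact permutation tests. The fit was run on simulated data with independent noise, which lacked the title number structure and lends no support to the results here. Alternatives changed the pseudocount, normalization, filter, test, variance model, blocks and arrays left out. Other software was Python 3.11.15, pandas 2.3.3, numpy 2.4.6, scipy 1.17.1 and matplotlib 3.10.9. Promoter sequences are from RefSeq (GRCm38.p6).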

Additional observations from a re-analysis of the deposited data

How the results depend on the processing

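No member probe set passed the FDR under any alternative, and the lowest adjusted p of any was 0.226 (limma), for Hif1a 1448183_a_at without control pool 3. That probe set had log2 fold changes of 0.53 to 2.11 over 16 alternatives and of 1.20 to 2.11 with 1 pool left out. It passed p and 1.5-fold in 13 of them. The exceptions were the methods' t-test (unadjusted p = 0.0567), the title number as a block in limma and the arrays of one title number. Both title number settings rest on the same 3 arrays, with 1 control array, and are not separate results. Egln1 1423785_at stayed between -0.64 and -0.44. Apart from the title number settings, its unadjusted p lay between 0.00209 (the methods' t-test) and 0.140 (limma with the replicate block). In limma it was 0.00657 with the pseudocount at the median signal. The same sign was kept in all alternatives by 10 of the 23 member probe sets.

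Member probe sets higher at p and 1.5-fold without the FDR numbered 1, against 0 with the methods' t-test. With 1 pool left out they numbered 1 to 2, Vegfa 1451959_a_at being added without Stat3Δ/Δ pool 2. Those lower numbered 0, against 1 with arrays centred on their medians (Egln1 1423785_at, -0.64, unadjusted p = 0.0362) and 0 to 1 with 1 pool left out (Adm 1416077_at with Stat3Δ/Δ pool 3 left out, or Ndrg1 1456174_x_at with control pool 3 left out). Centring moved the median of all genes to -0.18, against -0.085. Pools with one replicate number did not deviate together, as their deviations had correlations of -0.084, -0.0088 and -0.235. Whether these pools were matched by litter cannot be told from this. With the replicate block the member counts were again 1 and 0, and the count of all probe sets past the FDR was 0.

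Over all probe sets, 1 passed the FDR in the higher direction. The count was 0 with no pseudocount, 8 with the pseudocount at the median signal and 2 with arrays centred on their medians. It was 12 with only probe sets above the median signal and 10 with a mean-variance trend. The methods' t-test and the replicate block gave 0 each, and leaving out 1 pool gave 0 to 1. In the lower direction 0 passed, against 3 with the pseudocount at the median signal, 4 above the median signal and 3 with the trend. Without the FDR 1865 were higher, against 1010 with the pseudocount at the median signal and 999 with the t-test. This number was 1233 when Stat3Δ/Δ pool 1 was left out and 2920 when control pool 3 was. Those lower numbered 1902, against 812 with the pseudocount at the median signal and 1217 with the t-test. Above the median signal, where only 22517 probe sets were tested, 1087 were lower. The median log2 fold change was -0.34 to 0.054 for the members, -0.15 to 0.11 for the machinery and -0.32 to 0.036 for the further targets over these alternatives. The cause of these shifts was not tested.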
